A study of Mus musculus with 11 samples.

Results

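The genes of lymphocyte killing Prf1, Gzma, Gzmb, Gzmc, Gzmd, Gzme, Gzmf, Gzmk, Nkg7 and Ifng were followed through 11 libraries. They were taken by symbol from the deposited gene table, and all 10 were found among its 55487 genes. The study asked how FGF21, a secreted hormone-like growth factor, acts on CD8+ T cells when tumour cells make it. The tumours were grown from MC38, a line of mouse colon carcinoma, which held either a control hairpin (shNC, genotype label WT) or a hairpin against Fgf21 (shFgf21, labelled as a knockdown). Bulk RNA was taken from sorted tumour T cells, with 3 shNC and 2 shFgf21 libraries, and from libraries labelled as tumour and as the MC38 line, with 3 of each. The sources used here give no host strain, age, time or number of clones behind each hairpin line. Sorted libraries have titles with several numbers joined, as for animals, and whether animals were pooled is not labelled. The genotype label of shFgf21 sorted replicate 2 names FGF22 in place of FGF21. Nothing in the labels ties replicates to separate mice, and p-values then cover only the spread among these libraries, possibly a technical one.

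Cytotoxic T cells and natural killer (NK) cells store perforin and granzymes in granules and release them onto a target cell. Perforin, from Prf1, opens pores in the target membrane, and granzymes, a family of serine proteases, enter the target and cleave its proteins. Ifng encodes interferon gamma, the cytokine that the same cells secrete to raise antigen presentation and chemokine production in cells around them.

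Libraries held 14944013 to 19099350 counts, and the limit set by 0 counts was 0.157 to 0.201 CPM by library (CPM is the count scaled to library size; counting error only). No 2 libraries of a group agreed within sampling noise (chi-square per degree of freedom of at least 13.4 over 10 pairs). Fgf21 had 0, 2 and 1 counts in the shNC tumours and 0 in every other library, so the knockdown could not be checked at this depth. Abl1, named after its values were seen, was at 41.5, 40.0 and 144 CPM in shNC sorted replicates 1 to 3 and at 154 and 135 CPM in the shFgf21 sorted libraries. In tumours it was at 44.4 to 52.0 CPM in shNC and 139.3 to 172.5 CPM in shFgf21. On this gene shNC sorted replicate 3 went with the shFgf21 libraries and against its label, so fold changes and list results are also given without it where they move. The sorted libraries held RNA of T cell genes beside RNA of macrophage genes and of genes of MC38 and fibroblast-type cells. The lists differ in genes and in level per gene, so their shares do not rank the cell types by amount. The 20 T cell identity genes took 0.0567% to 0.109% of counts in shNC and 0.0624% to 0.0742% in shFgf21, lowest in shNC replicate 3, while the 12 macrophage genes took 1.09% to 1.33% and 1.64% to 1.73%, and 7 genes of MC38 and fibroblast-type cells 1.09% to 1.19% and 1.05% to 1.24%.

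The granzymes Gzmc, Gzmd, Gzme and Gzmf lie with Gzmb in 1 cluster on chromosome 14. The bases before their starts are shown because the values of Gzmc to Gzmf went up and down together between sorted libraries. This was not particular to the cluster, since Gzma, on chromosome 13, followed a course close to that of Gzmc. The cluster from Gzme to Gzmb spans 56117626 to 56262260 on the minus strand (mm10). Each line below runs from 250 to 21 bases before the RefSeq start, 5′ to 3′ on the gene's strand, and Gzmb follows as the cluster's member that went another way. The sequences are from RefSeq, build GRCm38.p6, at chr14:56234678-56234907 for Gzmc, chr14:56132614-56132843 for Gzmd, chr14:56120646-56120875 for Gzme, chr14:56211428-56211657 for Gzmf and chr14:56262355-56262584 for Gzmb. Capitals mark the longest run that the first 4 share without a mismatch.
Gzmc: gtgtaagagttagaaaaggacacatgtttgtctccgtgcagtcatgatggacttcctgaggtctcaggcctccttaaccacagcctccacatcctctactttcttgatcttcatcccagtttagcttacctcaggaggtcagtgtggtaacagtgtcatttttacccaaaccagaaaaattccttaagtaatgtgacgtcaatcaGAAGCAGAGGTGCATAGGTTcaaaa
Gzmd: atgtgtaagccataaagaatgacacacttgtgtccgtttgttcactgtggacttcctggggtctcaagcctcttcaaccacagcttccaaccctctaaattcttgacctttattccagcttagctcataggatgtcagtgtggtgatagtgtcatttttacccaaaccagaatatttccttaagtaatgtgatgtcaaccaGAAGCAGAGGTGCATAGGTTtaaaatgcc
Gzme: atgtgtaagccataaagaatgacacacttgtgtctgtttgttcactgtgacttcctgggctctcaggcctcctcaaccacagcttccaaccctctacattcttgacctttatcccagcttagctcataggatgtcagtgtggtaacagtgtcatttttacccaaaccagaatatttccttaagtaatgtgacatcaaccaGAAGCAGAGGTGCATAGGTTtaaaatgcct
Gzmf: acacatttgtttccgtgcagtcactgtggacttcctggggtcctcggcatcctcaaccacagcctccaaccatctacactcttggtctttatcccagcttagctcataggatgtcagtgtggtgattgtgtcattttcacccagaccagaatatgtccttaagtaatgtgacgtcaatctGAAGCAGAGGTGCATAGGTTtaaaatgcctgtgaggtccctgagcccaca
Gzmb: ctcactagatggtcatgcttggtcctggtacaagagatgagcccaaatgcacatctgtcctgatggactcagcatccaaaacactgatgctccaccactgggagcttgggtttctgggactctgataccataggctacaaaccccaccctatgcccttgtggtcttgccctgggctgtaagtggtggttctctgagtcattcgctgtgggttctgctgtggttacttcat
The run of 20 bases was found, on either strand, before 5 of 32851 starts, those of Gzmc, Gzmd, Gzme, Gzmf and the neighbouring Gzmg. Over 250 bases the Gzmd and Gzme sequences were 95.6% identical after global alignment, and the other pairs of the 4 were 84.4% to 88.7% identical. Gzmb was 55.7% to 62.5% identical to them, near Gzma (60.1% to 60.4%) and Gzmk (58.7% to 64.0%). The printed Gzmb window begins at 56262355, though the gene table puts the gene's start at 56262260. It lies farther from that start than the other 4 windows do from theirs, so unlike positions were aligned and searched for Gzmb. The 4 motifs below were searched on both strands in the 250 bases, and none of them contains another. The cAMP response element TGACGTCA was found before Gzmc and Gzmf among the 10 genes, against 1.55% of all starts. The RUNX motif AACCACA was found before 6 of the 10 (Gzma, Gzmb, Gzmc, Gzmd, Gzme and Gzmf), against 4.40% of all starts. In Gzmc, Gzmd, Gzme and Gzmf it began 175, 175, 176 and 196 bases before the start. These 4 sequences are alike, so motif matches among them are not independent and their number is not read against the share of all starts. The AP-1 motif TGANTCA was found before Gzmb (6.75% of all starts), and the interferon-activated motif TTCNNNGAA before Nkg7 and Ifng (7.02%). Such matches describe letters and not binding. The transcripts of Gzmd, Gzme and Gzmf were 87.6% to 94.8% identical to each other, and that of Gzmc was 76.4% to 77.3% identical to them, close to its 77.8% with Gzmb. Of the 50-base windows of the transcript, 21.9% in Gzmd, 20.6% in Gzme, 7.36% in Gzmf and 4.14% in Gzmc recur exactly in another granzyme, against 0% in Gzma, Gzmb and Gzmk. The sources used here do not say how reads from such stretches were counted, so the split of counts among Gzmc to Gzmf is uncertain.

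In control sorted cells the cluster granzymes led and Gzmk was nearly silent. Levels between genes were compared in FPKM, a count scaled to gene length and library size. Gzmf was highest at 202 ± 49.4 FPKM (SD, n = 3). Gzmc (122 ± 7.97), Gzmd (113 ± 33.4) and Gzmb (103 ± 19.6 FPKM) came next, then the related Gzmg (98.3 ± 54.1), Gzme (49.6 ± 18.9), Nkg7 (47.2 ± 18.7) and Ifng (45.6 ± 21.4 FPKM). Gzma (17.0 ± 2.52) and Prf1 (14.9 ± 0.856 FPKM) were below all of these, and Gzmk was at 1.07 ± 0.800 FPKM. Neighbours in this order overlapped between libraries, except that Gzmf stood above Gzmc, Ifng above Gzma and Prf1 above Gzmk in every shNC library. Without shNC replicate 3, Gzmb (113 FPKM) was placed above Gzmd (94.0) and Ifng (58.0) and Nkg7 (56.8) above Gzme (39.3 FPKM). In shFgf21 sorted cells Gzmf was again first, at 76.8 ± 42.4 FPKM (SD, n = 2), and Gzmb (58.0 ± 2.34 FPKM) was placed above Gzmc (56.7 ± 37.2), with overlapping values. Together the 10 genes took 0.0898%, 0.0760% and 0.0845% of counts in the shNC and 0.0445% and 0.0298% in the shFgf21 sorted libraries.

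The comparison of shFgf21 with shNC sorted cells was the one these genes were chosen from, so it is given as a description, with no test. All 10 were below 0 on the log2 scale, as were 51.8% of the 16454 genes tested, and their median log2 fold change was -1.22 against -0.01 over all genes. For 8 of the 10 every shFgf21 library was below every shNC library, against 15.0% of genes (14.5% had every shFgf21 library higher). Of all genes, 0.0608% passed edgeR's adjusted threshold of 0.05 as lower and 0.0790% in either direction, and no call is read for the 10 here. In bulk RNA, fewer cells of a type and less RNA per cell cannot be told apart. Values below are CPM scaled by TMM, and fold changes are from edgeR with their standard error (SE).

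**Figure D1:**
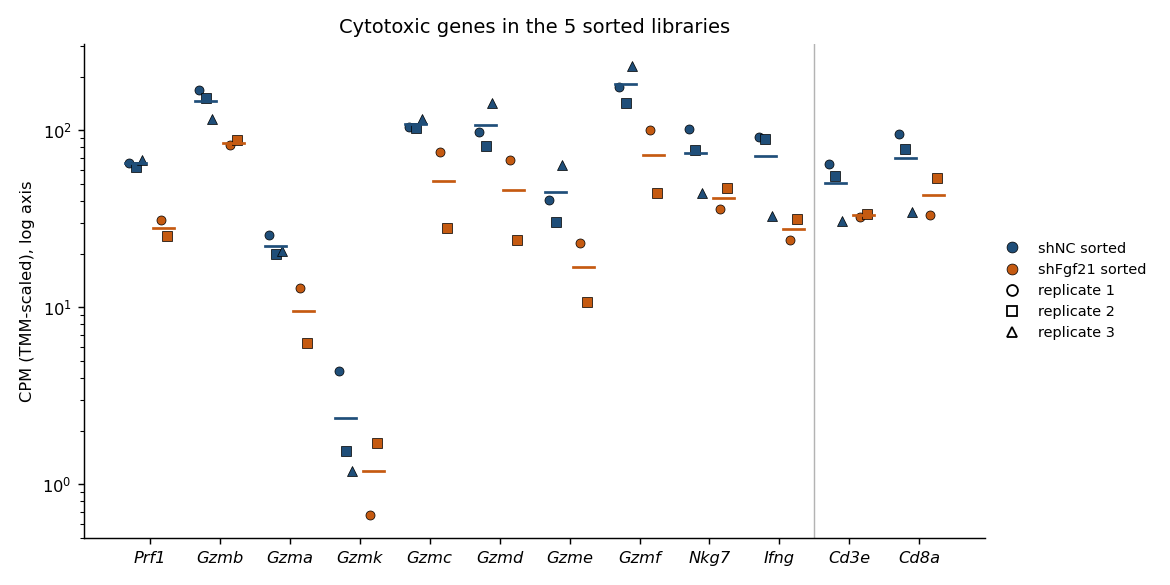
Level of each of the 10 genes and of Cd3e and Cd8a in the 5 sorted libraries, as TMM-scaled CPM on a log axis. Points are libraries, marker shapes are replicates and short lines are group means; Prf1 runs from 61.8 to 68.2 CPM in shNC against 25.2 to 31.0 CPM in shFgf21, while Gzmk and Nkg7 overlap.

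Prf1 (chromosome 10, 61297833 to 61304680) encodes perforin and varied little within a group. It was at 65.5, 61.8 and 68.2 CPM in shNC replicates 1 to 3 and at 31.0 and 25.2 CPM in shFgf21 replicates 1 and 2. The lowest control was 1.99-fold above the higher shFgf21 library. The mean was 2.32-fold lower in shFgf21 and the log2 fold change was -1.21 ± 0.13 (SE). Without shNC replicate 3 its fold change was -1.18.

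Gzmb (chromosome 14, 56258838 to 56262260) encodes the granzyme that starts apoptosis by cleaving caspases and their substrates. It was at 168, 152 and 115 CPM in shNC and 82.2 and 88.3 CPM in shFgf21. The shFgf21 libraries were close to each other and below the lowest control, replicate 3, with a log2 fold change of -0.77 ± 0.16 (-0.91 without that library). Gzma (chromosome 13, 113093825 to 113100981), a trypsin-like granzyme, was at 25.5, 19.9 and 20.9 CPM in shNC and 12.8 and 6.25 CPM in shFgf21. Its controls were even and its shFgf21 libraries were unequal, with a log2 fold change of -1.22 ± 0.29 (-1.26 without shNC replicate 3, and -1.82 to -0.79 with 1 library left out). Gzmk (chromosome 13, 113171608 to 113225908), also trypsin-like, had 68, 23 and 20 counts in shNC and 10 and 27 in shFgf21. The groups overlapped, and the one high value was shNC replicate 1, where the 95% Poisson interval of the count was 52.8 to 86.2, with a log2 fold change of -0.97 ± 0.66 (-1.30 without shNC replicate 3, and -1.81 to -0.18 with 1 library left out).

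Gzmc, Gzmd, Gzme and Gzmf differed more between libraries of a group than Prf1 did. Gzmc (chromosome 14, 56231441 to 56234656) was at 105, 104 and 116 CPM in shNC and 75.4 and 28.0 CPM in shFgf21. Gzmd (56129556 to 56132608) was at 97.3, 81.6 and 142 CPM and at 67.8 and 23.8 CPM. In both genes shFgf21 replicate 1 lay nearer to the controls than to its partner. Gzme (56117626 to 56120625) was at 40.6, 30.4 and 63.5 CPM in shNC and 22.9 and 10.6 CPM in shFgf21. Gzmf (56205263 to 56211417) was at 177, 142 and 229 CPM and at 99.7 and 44.4 CPM. In all 4 genes shNC replicate 3 was the highest and shFgf21 replicate 2 the lowest of the 5 libraries, and the groups did not overlap. Their log2 fold changes were -1.06 ± 0.35 for Gzmc, -1.23 ± 0.41 for Gzmd, -1.42 ± 0.39 for Gzme and -1.34 ± 0.34 for Gzmf. Without shFgf21 replicate 2 they were -0.52, -0.66, -0.97 and -0.87, without shFgf21 replicate 1 -1.94, -2.16, -2.07 and -2.04, and without shNC replicate 3 -1.01, -0.97, -1.09 and -1.15. The summed level of the 4 genes was 419, 358 and 551 CPM in shNC and 266 and 107 CPM in shFgf21, so replicate 2 held less than replicate 1 by more than the counting error of its 1677 counts against 3991.

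Nkg7 (chromosome 7, 43437073 to 43438249) encodes a granule membrane protein that helps cytotoxic granules release their contents. It was at 102, 77.4 and 44.1 CPM in shNC and 35.7 and 47.3 CPM in shFgf21. Control replicate 3 fell among the shFgf21 values, and the log2 fold change was -0.84 ± 0.32 (-1.11 without that library). Ifng (chromosome 10, 118441046 to 118445892) was at 91.8, 89.8 and 32.8 CPM in shNC and 23.9 and 31.7 CPM in shFgf21. The groups did not overlap, but shNC replicate 3 stood only 1.04-fold above the higher shFgf21 library, and the log2 fold change was -1.36 ± 0.41 (-1.71 without replicate 3). The predicted gene Gm49751 overlaps Ifng on the same strand and held 259 counts over the 5 libraries. Of the 10 genes, shNC replicate 3 was the highest control for 5 (Prf1, Gzmc, Gzmd, Gzme and Gzmf) and the lowest for 4 (Gzmb, Gzmk, Nkg7 and Ifng).

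The T cell genes moved between libraries too. Cd3e, a signalling chain paired with the T cell receptor, was at 64.1, 55.4 and 30.6 CPM in shNC and 32.4 and 33.6 CPM in shFgf21. Cd8a, the co-receptor chain of CD8+ T cells, was at 95.5, 78.3 and 34.6 CPM and at 33.1 and 53.4 CPM. Both were lowest among the controls in replicate 3, at the level of the shFgf21 libraries, and neither separated the groups.

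Expressed per count of Cd3e, the 10 genes were still lower in shFgf21 on average, but less so. Their median log2 difference was -0.72, against 0.45 over all genes on the same ratio. For 3 of 10 (Prf1, Gzmb and Ifng) every shFgf21 library was below every control, against 1.05% of all genes, and nothing is read from this count, since the genes were chosen from the same groups. Prf1 gave 1.02, 1.11 and 2.23 counts per Cd3e count in shNC and 0.955 and 0.748 in shFgf21. Gzmb gave 2.63, 2.75 and 3.77 against 2.53 and 2.62, so that the highest shFgf21 library was next to the lowest control. Ifng gave 1.43, 1.62 and 1.07 against 0.737 and 0.941. Without shNC replicate 3, whose ratios were the highest for 7 of the 10, the median was -0.26, against 0.84 over all genes. These 7 were Prf1, Gzma, Gzmb, Gzmc, Gzmd, Gzme and Gzmf, and in Gzmf, for example, the ratio was 7.49 in replicate 3 against 2.76 and 2.56 in the other controls and 3.07 and 1.32 in shFgf21.

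Per count of Cd8a the median was -0.60 (0.49 over all genes), and of the 10 Ifng did not overlap (0.577% of all genes did not, in the lower direction), at 0.962, 1.15 and 0.947 in shNC against 0.722 and 0.593 in shFgf21. Prf1 gave 0.686, 0.788 and 1.97 against 0.936 and 0.471, and Gzmb 1.77, 1.94 and 3.33 against 2.48 and 1.65. Both overlapped, since shFgf21 replicate 1 lay above shNC replicates 1 and 2. Without shNC replicate 3 the median was 0.01 (1.07 over all genes) and 5 of 10 genes were lower, as were 2.41% of all genes, while Ifng still did not overlap (0.669% of all genes). Without shFgf21 replicate 1 the median was -1.48 (0.10 over all genes), and 9 of 10 did not overlap, against 5.07% of all genes. Per count of Cd4, the helper T cell co-receptor, at 36.0, 38.0 and 21.3 CPM in shNC and 40.4 and 39.8 CPM in shFgf21, the median was -1.64 (-0.44 over all genes) and 9 of 10 (all but Gzmk) did not overlap, against 35.4% of all genes. Against Gzmb the other 9 genes had a median of -0.48 (0.73 over all genes), and 1 did not overlap, against 0.735% of all genes, which was Prf1 (0.389, 0.406 and 0.590 against 0.377 and 0.285). As with Cd3e, nothing is read from these counts of genes without overlap, since the genes were chosen from the same groups.

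**Figure D2:**
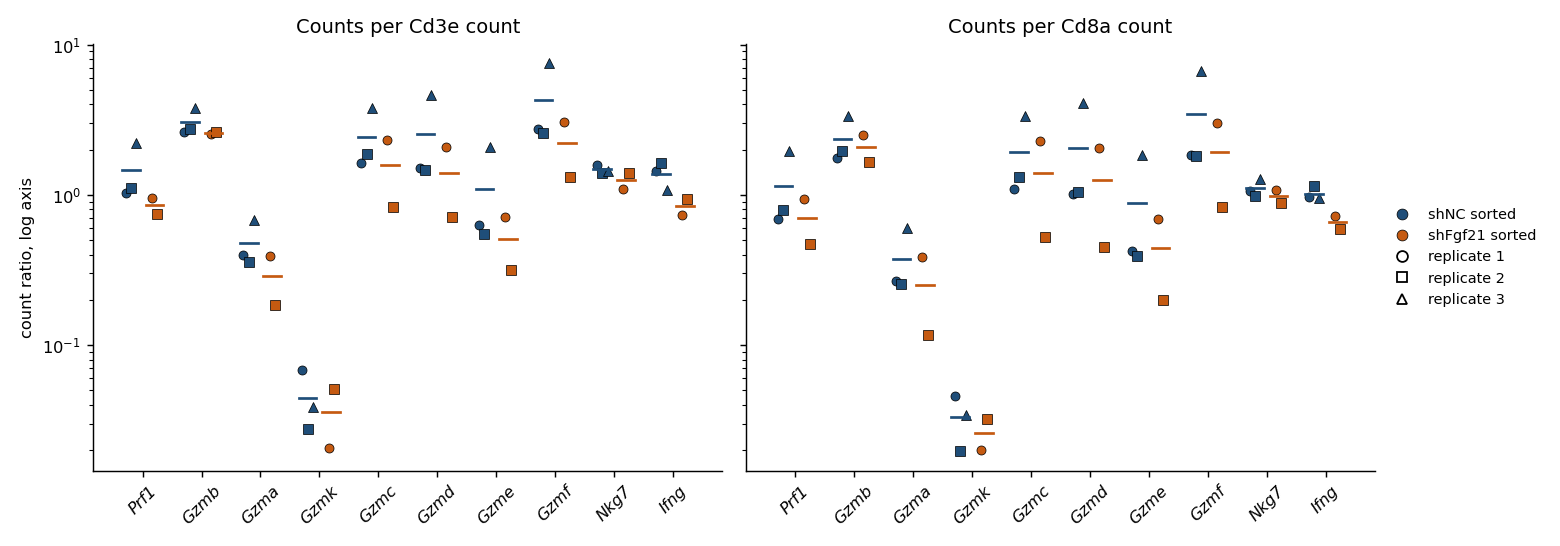
Counts of each gene per count of Cd3e (left) and of Cd8a (right) in the 5 sorted libraries, on a log axis. Points are libraries, marker shapes are replicates and short lines are group means; shNC replicate 3 is the highest for Gzmf in both panels (7.49 and 6.62), and Ifng is separated between groups in both.

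Control sorted cells were next set against control tumours, which did not use the knockdown contrast. All 10 genes were present in the sorted libraries and nearly absent from tumours. Gzmf, the most frequent of them there, had 11, 5 and 28 counts in shNC tumours 1, 2 and 6, or 0.759, 0.251 and 1.49 CPM. Gzmc had 18, 1 and 3 counts, and no other gene of the 10 exceeded 5 counts in an shNC tumour. Gzmf was 224-fold higher in sorted libraries on pooled counts (95% counting interval 167 to 308), Gzmc 262-fold (173 to 419), Prf1 696-fold (298 to 2144), Gzmb 1542-fold (661 to 4748) and Ifng 535-fold (260 to 1330). Gzma and Gzmk had 0 counts in these tumours, and were at least 393-fold and 41.6-fold higher against 3 counts over the group. Log2 fold changes ran from 7.92 ± 0.46 for Gzmf to 10.63 ± 0.41 for Gzmb among the genes with counts in both. All 10 passed edgeR's threshold (adjusted p = 1.2e-06 to 0.00347) and were higher in 3 of 3 sorted libraries, against 19.1% of genes called higher, 25.6% with every sorted library above every tumour, 21.6% with every one below, 48.6% above 0 and 51.4% below 0. They passed the filter on low counts through the sorted libraries alone, so their number is not read as support. The tumour libraries lacked other leukocyte RNA as well. Cd3e had 0 counts in all 6, the 12 macrophage genes took 0.00108% to 0.00248% of counts in shNC tumours, and all 12 were called higher in sorted cells, with a median log2 fold change of 10.26 against 9.31 for the 10. Cell population, sorting and handling cannot be told apart in this comparison.

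**Figure D3:**
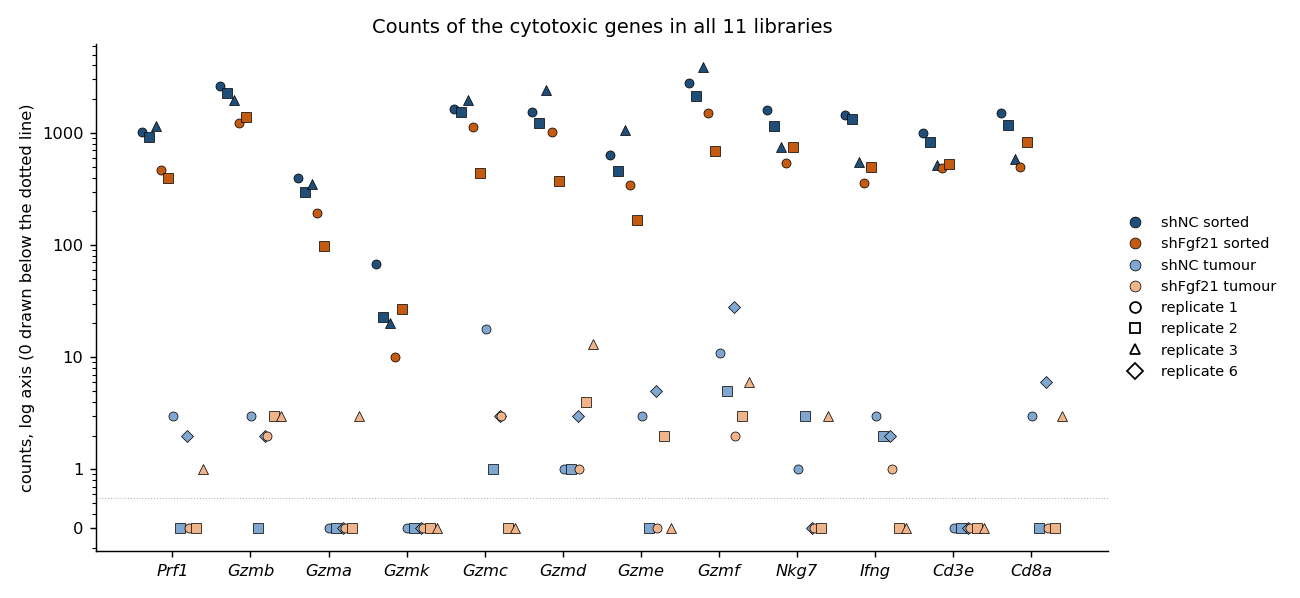
Raw counts of the 10 genes, Cd3e and Cd8a in all 11 libraries, on a log axis with 0 drawn below the dotted line. Points are libraries and marker shapes are replicates; tumour libraries stay between 0 and 28 counts, and Gzmk and Cd3e are at 0 in all of them.

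Between shFgf21 and shNC tumours, none of the 10 genes passed the filter on low counts, and 0.0334% of the 14950 genes tested were called (0.0268% higher and 0.00669% lower), while 5.40% were higher and 6.19% lower without overlap. Gzmf had 2, 3 and 6 counts in shFgf21 tumours 1 to 3. Gzmd had 1, 4 and 13 counts, against 1, 1 and 3 in shNC. Gzma, at 0 in every other tumour, had 3 counts in shFgf21 tumour 3, and Gzmk had 0 in all 6, which allows at most 0.2004 CPM in a tumour library. With every gene kept, 9 were tested by edgeR and 0 passed (each adjusted p at least 0.788), with 1 at an unadjusted p under 0.05, Gzmf (log2 fold change -1.85 ± 0.72, unadjusted p = 0.0286). A difference of these genes in tumours was not detectable at this depth.

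Other genes of the killing machinery, from lists set beside the 10, were tested in sorted cells over all genes with edgeR. Without shNC replicate 3, 0 genes of the 6 lists passed, and medians were -0.36 for granule genes, 0.02 for transport, -0.23 for ligands, -0.14 for transcription factors, -0.15 for inhibitors and -0.47 for receptors. Of 8 granzyme and granule genes tested, 6 were lower and 0 passed (median -0.35). Gzmg, the cluster granzyme next to Gzmd, was at 62.3, 58.2 and 144 CPM in shNC and 50.8 and 11.8 CPM in shFgf21 (-1.50 ± 0.61, adjusted p = 0.422). Ctsw, a cathepsin of cytotoxic cells, was at 32.2 ± 8.91 and 19.0 ± 1.38 CPM (-0.76 ± 0.23, adjusted p = 0.313). Gzmg was highest in shNC replicate 3 and lowest in shFgf21 replicate 2, as were Gzmc to Gzmf, while Ctsw was lowest among controls in replicate 3, as Gzmb was. Cst7, a cystatin that inhibits granule cathepsins, was at -0.70 ± 0.34 (adjusted p = 0.493), and Ctsc, the cathepsin that activates granzyme precursors, at 0.38 ± 0.16 (adjusted p = 0.438).

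The machinery that moves granules did not pass in any gene. Of 9 transport and release genes 6 were higher and 0 passed (median 0.05), led by Stx11, a syntaxin of granule fusion, at 33.3 ± 4.56 and 49.9 ± 1.66 CPM (0.58 ± 0.14, adjusted p = 0.235). Of 10 transcription factors of cytotoxic cells 5 were lower and 0 passed (median -0.05), with Id2 at -0.14 ± 0.09 (adjusted p = 0.602). Of 9 other killing ligands and cytokines 5 were lower and 0 passed (median -0.06), with the chemokine Ccl5 at 68.4 ± 11.3 and 122 ± 13.0 CPM (0.83 ± 0.14, adjusted p = 0.130). Of 6 granzyme inhibitors 4 were lower and 0 passed (median -0.10). Of 9 receptors known to drive Ifng 6 were lower and 0 passed (median -0.31), with Tnfrsf9, the costimulatory receptor 4-1BB, at 149 ± 16.2 and 108 ± 2.47 CPM (-0.46 ± 0.11, adjusted p = 0.250).

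Of the receptor and target genes of interferon gamma, Cxcl9 rose past the threshold. All 15 tested genes of this list were above 0, against 48.2% of all genes, with a median of 0.29, and 1 passed in the higher direction, as did 0.0182% of all genes. Cxcl9, an interferon-induced chemokine that draws T cells, rose from 265, 322 and 269 CPM in shNC to 609 and 622 CPM in shFgf21 (1.11 ± 0.11, adjusted p = 0.0296). This call was lost without either shFgf21 library, and also in 2 of the other processing alternatives with all libraries kept. With 1 library left out the log2 fold change of Cxcl9 ran from 1.06 to 1.20. Gbp2, an interferon-induced GTPase, was at 487, 459 and 460 CPM and at 749 and 788 CPM (0.71 ± 0.09, adjusted p = 0.0562). The receptor chains and a kinase were nearly level, Ifngr1 at 0.07 ± 0.14, Ifngr2 at 0.11 ± 0.13 and Jak1 at 0.06 ± 0.10 (adjusted p = 0.884, 0.788 and 0.872). Ciita, the regulator of class II genes, was at 0.82 ± 0.16 and the class II gene H2-Ab1 at 1.15 ± 0.24 (adjusted p = 0.162 and 0.192). The groups did not overlap for Cxcl9 and Gbp2, and shNC replicate 3 lay with the other controls in both. Without it 14 of 15 were above 0 (median 0.30), and Cxcl9 was at 1.07 ± 0.13 (adjusted p = 0.0427). Macrophages also make RNA of this list, and the macrophage genes were above 0 in 11 of 12 (median 0.54, 0 passed), with their share of counts separated between the groups. Their part in the result was not tested. In tumours, where Ifng had 0 to 3 counts, 14 of 16 genes of the list were above 0 (48.8% of all genes, with 51.2% below), with a median of 0.41 and 0 passing. There Cxcl9 was at 116 ± 60.9 and 187 ± 18.9 CPM (SD, n = 3 each, 0.69 ± 0.35, adjusted p = 0.841).

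**Figure D4:**
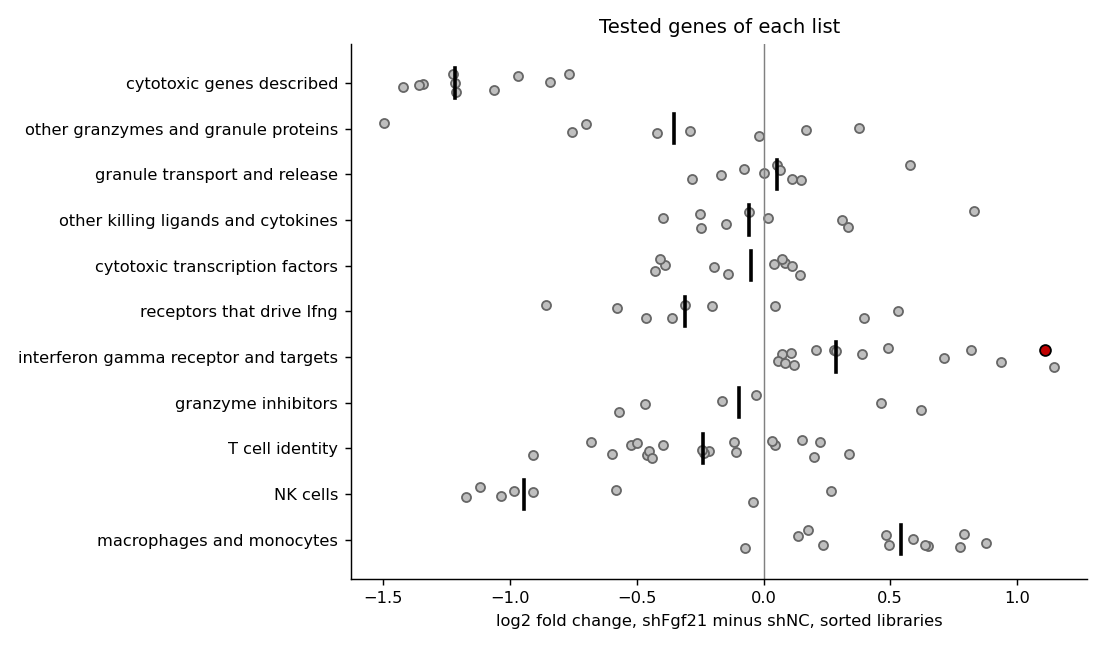
Log2 fold change of each tested gene, shFgf21 minus shNC in sorted libraries, for the 10 cytotoxic genes and 10 other lists. Each point is a gene, black bars are list medians and the red point is Cxcl9, past the threshold, a mark not used for the cytotoxic genes, which were chosen from this comparison; all 10 cytotoxic genes lie left of 0 and all 15 interferon gamma genes right of it.

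In the marker lists of several other cells more genes were below 0 than above it, and 0 passed with all libraries kept. Of all genes, 51.8% were below 0. NK cell genes took 0.0118%, 0.00993% and 0.00644% of counts in shNC and 0.00577% and 0.00606% in shFgf21, and 7 of 8 were below 0 (median -0.95, 0 passed). Klrd1, a receptor chain of NK and CD8+ T cells, had a log2 fold change of -0.98 ± 0.31 (adjusted p = 0.323), and without shNC replicate 3 of -1.26 ± 0.16 (adjusted p = 0.0437), when all 8 were below 0 (median -1.19). Ncr1, which defines NK cells, had 28, 35 and 21 counts in shNC and 17 and 12 in shFgf21. The NK share was lowest among the controls in replicate 3, as with Ifng and Nkg7 and unlike Gzmc to Gzmf, which were highest there. In tumours the list took 0.00446% to 0.00626%, nearly all of it Klra4, while Ncr1 had 0 counts. Of 20 T cell identity genes 14 were below 0 and 0 passed (median -0.24; 17 and -0.49 without shNC replicate 3), with Trbc1 at -0.44 ± 0.15 and Cd8b1 at -0.91 ± 0.39 (adjusted p = 0.356 and 0.439). Mast cells can also make granzymes, and their 12 markers took 0.00199% to 0.00416% in shNC and 0.00106% to 0.00180% in shFgf21. Of 5 tested, 3 were below 0 and 0 passed (median -0.18), most of the share being Hdc, the histamine-making enzyme, having a log2 fold change of -1.70 ± 0.45 (adjusted p = 0.279). The mast cell proteases Mcpt4 and Tpsb2 were above 0 (0.89 ± 0.61 and 1.03 ± 0.54, adjusted p = 0.638 and 0.530). Mcpt8, a basophil protease, had 21 counts over all 5 libraries. Of 6 neutrophil genes 4 were below 0 and 0 passed (median -1.98), with S100a9 at -2.49 ± 0.40 and S100a8 at -1.67 ± 0.34 (adjusted p = 0.129 and 0.187), and their share was 0.0110% to 0.0186% in shNC and 0.00939% to 0.00986% in shFgf21. Of 3 B cell genes tested 2 were below 0 and 0 passed (median -0.65), with Ighm at -0.89 ± 0.18 (adjusted p = 0.176). Cd79a was above 0, at 0.14 ± 0.61, and had a mean under 1 CPM in both groups. The part of NK cells, mast cells, neutrophils and B cells in the levels of the 10 genes was not tested.

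Finally, the genes with the most similar course over the 5 sorted libraries were listed for Prf1, Gzmb and Ifng, by the root mean square (RMS) difference of centred log2 CPM among 9662 genes. For Prf1 they were Tnpo1, Pcyt1a, Tnc, Tmem70 and Itga1 (RMS 0.0436 to 0.14). Tnpo1, a nuclear import receptor, was at 162, 144 and 154 CPM in shNC and 74.5 and 59.2 CPM in shFgf21, and Tnc encodes an extracellular matrix protein, so this course was not limited to lymphocyte genes. For Gzmb they were Ctsw, Slc2a3, Rgs16, Gcfc2 and Lyrm4 (RMS 0.0943 to 0.134). For Ifng they were Apc, Klrd1, Klrk1, Cd8b1 and Styx (RMS 0.167 to 0.272), of which Klrd1, Klrk1 and Cd8b1 are receptors of killer cells and CD8+ T cells. Among the 10 genes without Gzmk, which was below 10 CPM and not ranked, the closest pairs were Gzme with Gzmf (RMS 0.123), Gzmd with Gzmf (0.123) and Gzmd with Gzme (0.157). Gzmc was closer to Gzma of chromosome 13 (0.195) than to its cluster neighbours Gzmf, Gzmd and Gzme (0.211, 0.217 and 0.321). Nkg7 was close to Cd8a and Cd3e (0.171 and 0.175). The measure rests on 5 libraries, and these all share the 2 groups.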

How the data were processed

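Genes, lists and tests were chosen with earlier results of these data known. The deposited table gives whole counts for each gene, and the authors' FPKM, for 11 libraries, per the file headers. Submitters' processing notes name mm10. The sources used here do not give aligner, counter, annotation or strandedness. FPKM served only to compare levels between genes. Groups came from titles. Counts were fitted in R 4.3.3 with edgeR 4.0.16 (filterByExpr, TMM, quasi-likelihood F-test), separately for sorted cells, tumours, and control sorted against control tumour libraries, with Benjamini-Hochberg adjustment over all genes and a threshold of 0.05. SE was derived as the log2 fold change over root F. Log2 CPM used a prior count of 2. Ratios are raw counts per library. The scripts were tested on simulated data. Named genes were the 10, Cd3e, Cd8a, and from other lists those past the threshold, else up to 4 with the smallest p at a mean of at least 10 CPM. Others were chosen after their values were seen. Alternatives included DESeq2 1.42.0, other filters and scalings, and leaving out each library. Tumours share only numbers in titles, which are not said to mark pairs.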

Additional observations from a re-analysis of the deposited data

How the results depend on the processing

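In sorted cells, where the 10 genes were chosen, no test is read for them. The number below the adjusted threshold is given only as a measure of the setting. It was 1, and 0 with no filter on low counts, 0 with all 4 groups in one fit and 3 by DESeq2. With 1 shNC library left out it was 0 to 3, being 3 without shNC replicate 3 and 0 without shNC replicate 2. All genes called were 13, against 1 with no filter, 1 with all 4 groups, 232 by DESeq2, 34 without shNC replicate 3 and 0 without shFgf21 replicate 2. The median log2 fold change ran from -1.59 to -0.92 with 1 library left out. Against control tumours 10 genes were called in each alternative run except a mean of at least 5 CPM, where Gzmk was not tested and 9 were called, with a median, 1 library left out, of 8.91 to 10.001. Relative to Cd3e the median was -1.17 to -0.26 with 1 library left out, and Gzmk was at 0.11 without shNC replicate 1 and 0.19 without shFgf21 replicate 1. Relative to Cd8a, leaving out libraries was added after seeing the data, and the median ran from -1.48 to 0.0097. Without shNC replicate 3, Gzmb was at 0.16, Gzmc 0.21, Gzmd 0.28, Gzme 0.13 and Gzmf 0.070, and without shFgf21 replicate 2, Gzma was at 0.043, Gzmb 0.08 and Gzmc 0.25. Without shFgf21 replicate 1, Gzma was at -1.68, Gzmb -0.50, Gzmc -1.87, Gzmd -2.20, Gzme -2.15 and Gzmf -2.04. Relative to Cd3e, Gzmk was at -1.12 without shFgf21 replicate 2. The cause was not tested. In tumours the replicate block on the title numbers left 0 of the 10 genes called and raised all genes called from 5 to 131, and DESeq2 without it called 115. Deviations of same-numbered libraries correlated at 0.165 and -0.153, too few values to settle whether the numbers mark pairs. Depth limits Gzmk in sorted cells and all 10 genes in tumours.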
